A study of Mus musculus with 16 samples.

Results

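The genes described here act in lipid uptake, lipid storage and fatty acid desaturation. They are 10 genes chosen by symbol (Lpl, Cd36, Fabp5, Fabp3, Acsl1, Plin2, Soat1, Fads1, Fads2 and Scd2) out of 55385 genes in the deposited table, and all 10 passed the filter on low values. The choice was made with earlier results of these data known. Expression was measured by RNA sequencing in cells sorted from the retina of Iba1-EGFP mice, a reporter strain in which the Iba1 (Aif1) promoter drives green fluorescent protein in microglia and other macrophages. The 16 libraries comprised 4 from mice with no treatment (day 0, 15 weeks old), and 4 each from mice at day 2 (13 weeks old), day 4 (13 weeks old) and day 7 (16 weeks old) after optic nerve crush, an injury to the axons of retinal ganglion cells. All mice carried the same reporter, and no sham-operated group was among the samples. Age differed between day 0 and every later day, so age and time after injury cannot be told apart, except between day 2 and day 4. The labels did not say whether the libraries of a day came from separate animals, nor how many cells went into each, so p-values measure only how far these samples scatter, perhaps for technical reasons.

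Macrophages and microglia take up fatty acids released from lipoproteins by lipoprotein lipase (Lpl) or bound by the scavenger receptor Cd36. Inside the cell, fatty acid binding proteins such as Fabp5 and Fabp3 carry them, and acyl-CoA synthetases such as Acsl1 couple them to coenzyme A. Surplus fatty acid and cholesterol are stored as esters in lipid droplets, which perilipin 2 (Plin2) coats and for which Soat1 esterifies cholesterol. The desaturases Fads1, Fads2 and Scd2 put double bonds into fatty acyl chains; Fads1 and Fads2 act in the making of polyunsaturated fatty acids and Scd2 makes monounsaturated ones. In the nervous system, Lpl and the lipid droplet protein Plin2 are known as genes of activated and lipid-laden microglia.

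Values are FPKM, a level scaled by sequencing depth and by gene length. That length counts all annotated exon bases of a gene, from 823 for Fabp3 to 10483 for Acsl1. It need not be the length of the transcripts present, so levels compare only roughly between genes. The reads recovered per library numbered 8647276 to 15708302, and 9315 to 16522 genes reached 1 FPKM. All 10 microglial markers examined were present, and their mean log2(FPKM + 1) lay between 7.22 and 9.22 in every library. Their summed FPKM was 2998 to 11788 at day 0, 6033 to 11748 at day 2, 5215 to 6959 at day 4 and 4411 to 7367 at day 7. RNA of other retinal cells was also present: the summed FPKM of 8 rod photoreceptor genes was 1799 to 9143 at day 0, 1388 to 4654 at day 2, 1372 to 3986 at day 4 and 2986 to 5297 at day 7. The rod sum exceeded the microglial sum in replicate 1 of day 0 (9143 against 2998 FPKM). In replicate 2 of day 7 the sums were nearly equal (4417.5 against 4410.9 FPKM). Replicate 1 of day 0 had the most genes at 1 FPKM, 16522, beside at most 13050 in the others. Replicate 4 of day 7 had the fewest, 9315, close to the 9493 of replicate 3 of day 0, and the fewest members at that level. Results were therefore also computed without both. Between 3 and 9 of the 10 members reached 1 FPKM in a library, with 3 in replicate 4 of day 7 and 5 each in replicate 3 of day 0 and replicate 3 of day 4. The table lists all 37 mitochondrial genes at 0 in every library. A listed 0 may therefore be a failed estimate, and groups that hold one are given library by library.

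Replicates 1 and 2 of every day carried an earlier title code than replicates 3 and 4. They are called batch 1 and batch 2 here, a reading of the titles that the labels did not state. Changes are differences of log2(FPKM + 1), which understate the change of low genes, with the standard error (SE) of a limma fit across 14795 genes that carried batch as a term. A gene was called at an adjusted p of 0.05 or less (Benjamini-Hochberg over all genes tested). Shares of all genes tested are given beside the members and lists as a description. Both were chosen with earlier results known, so an excess over such a share is no test of them. In sorted bulk RNA, fewer cells of a type and less RNA per cell cannot be told apart.

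Lpl was the member with the largest change, and it rose at day 4. Lpl (ENSMUSG00000015568.16, chromosome 8, 68880491 to 68907448, plus strand, GRCm38) encodes the secreted lipase that frees fatty acids from lipoprotein triglyceride. Its level in replicates 1 to 4 was 1.11, 0.788, 0 and 5.58 FPKM at day 0, and 2.704, 0.0683, 3.88 and 10.1 FPKM at day 2. At day 4 it was 43.7, 58.0, 36.3 and 55.6 FPKM (48.4 ± 10.2, SD, n = 4), resting on 4891 to 9153 reads a library. At day 7 it was 15.5, 15.2, 21.6 and 2.85 FPKM (13.8 ± 7.86, SD, n = 4). All 4 libraries of day 4 lay above every library of the other 3 days, days 0 and 2 overlapped, and replicate 4 was the lowest at day 7.

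The change of Lpl from day 0 to day 4 was 4.44 ± 0.74 (log2, SE), with an adjusted p of 0.00506 by limma. It was the only member called higher there, 1 of 10, where 4.62% of all genes tested were called higher. Within batch 1 the change was 4.72 and within batch 2 it was 4.16. From day 2 to day 4, the pair of days with equal age, the change was 3.66 (limma adjusted p = 0.0438), again the only member called, against 0.433% of all genes called higher. This second call was not held when single libraries were left out: it was lost in 13 of 16 such fits. Over the 16 fits the changes were 3.06 to 4.17, with adjusted p of 0.0221 to 0.146 by limma. The call was also lost in 8 of 10 other settings. These include the full title code in place of the batch (limma adjusted p = 0.187). They also include leaving out the day 2 libraries whose titles carry the prefix F (limma adjusted p = 0.142). Libraries of day 2 and day 4 share no full code. From day 0 to day 7 the change was 2.47 and did not pass (limma adjusted p = 0.198), and from day 4 to day 7 it was -1.98 (limma adjusted p = 0.190), although all 4 libraries of day 7 lay below all of day 4.

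**Figure D1:**
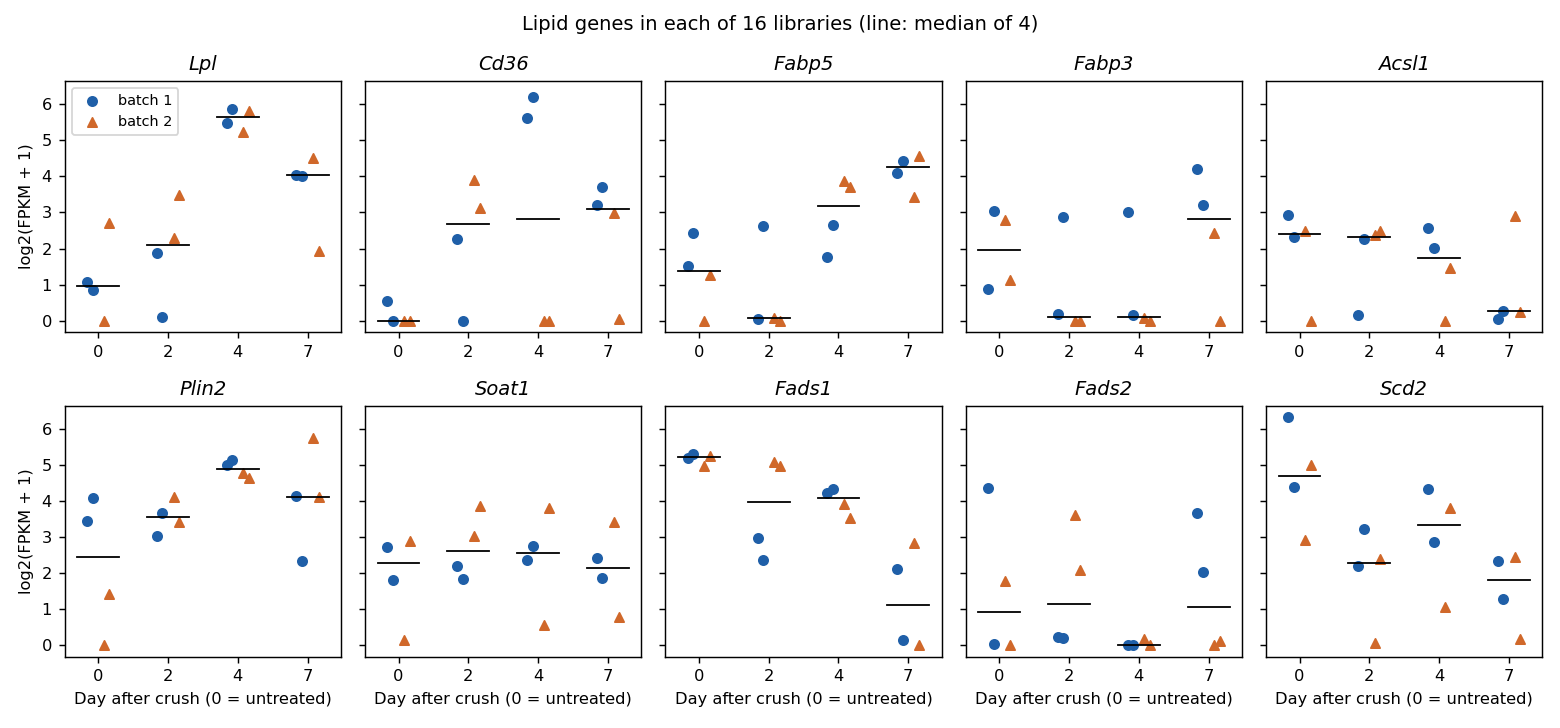
Level of each of the 10 genes in each of the 16 libraries, as log2(FPKM + 1), by day after optic nerve crush (4 libraries a day; symbols mark the batch read from the titles). Lpl sits between 36.3 and 58.0 FPKM at day 4, above every other day, Fads1 falls from 30.1 to 38.5 FPKM at day 0 to at most 6.19 FPKM at day 7, and several genes are spread from 0 upward within a day.

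Cd36 was scattered within the injured days, and its day 4 values split by batch. Cd36 (ENSMUSG00000002944.15, chromosome 5, 17781690 to 17888801, minus strand) encodes a membrane scavenger receptor that binds oxidised lipoprotein and long-chain fatty acids. It was at 0.465 FPKM in replicate 1 of day 0, on 16 reads, and listed at 0 in the other 3. At day 2 its level was 3.80, 0, 14.0 and 7.73 FPKM in replicates 1 to 4. At day 4 it was 48.5 and 73.1 FPKM in the 2 libraries of batch 1 and listed at 0 in both of batch 2, where 3 reads would have been 0.0650 and 0.0532 FPKM. At day 7 it was 8.22, 11.98, 7.00 and 0.0283 FPKM. Libraries with a level above that of every day 0 library numbered 3 of 4 at day 2, 2 of 4 at day 4 and 3 of 4 at day 7.

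No change of Cd36 passed the test. From day 0 to day 4 it was 2.82 ± 1.27 (limma adjusted p = 0.221), being 5.65 within batch 1 and 0 within batch 2. The difference between batches was -5.65 (limma adjusted p = 0.238). From day 2 to day 4 the within-batch changes were of opposite sign, 4.79 and -3.52, and their difference of -8.31 did not pass after adjustment (limma adjusted p = 0.0856). In a fit with the full title code in place of the batch, Cd36 was called higher at day 4 and day 7 against day 0. The changes were 5.31 (limma adjusted p = 0.00958) and 6.50 (limma adjusted p = 0.0201). Libraries of day 0 and day 7 share no full code, and those of day 0 and day 4 share a code only within batch 1. The day 7 value therefore rests on links through other days. It exceeds the day 7 changes within batches, 3.18 and 1.52, and the highest day 7 level, 3.70 as log2(FPKM + 1). Markers of other cells known to express Cd36 were read beside its day 4 values. The summed level of 10 endothelial and pericyte genes was 3.02 and 0.211 FPKM in the libraries where Cd36 was high, and 0.861 and 7.71 FPKM where it was listed at 0. The summed level of 7 border-associated macrophage genes was 81.9 and 107 FPKM in the former, and 343 and 160 FPKM in the latter. The summed level of 8 monocyte genes was 27.8 and 10.6 FPKM in the former, and 22.5 and 0.770 FPKM in the latter; over all libraries Ccr2 reached 0.180 FPKM, Ly6c2 18.3 FPKM, Plac8 16.8 FPKM and F13a1 47.4 FPKM. The part of these cells in the Cd36 values was not tested.

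The 3 genes of fatty acid binding and activation did not move together. Fabp5 (ENSMUSG00000027533.10, chromosome 3, 10012548 to 10016607, plus strand), a cytosolic carrier of fatty acids in macrophages and epidermis, was at 1.85, 4.38, 0 and 1.41 FPKM at day 0. Its day 2 values were 0.0324, 5.15, 0.0587 and 0 FPKM. At day 4 it was at 2.42, 5.32, 13.8 and 11.98 FPKM (8.38 ± 5.39, SD, n = 4), and at day 7 at 16.1, 20.5, 9.83 and 22.8 FPKM (17.3 ± 5.72, SD, n = 4). Every library of day 7 lay above every library of days 0 and 2, while day 4 overlapped with both day 0 and day 7. It was the 1 member of 10 wholly above day 0 at day 7, where 2.51% of all genes tested were.

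Fabp5 differed among the 4 days by the F test of the limma fit (adjusted p = 0.0343), where 2.89% of all genes tested passed. No single pair of days passed: the change was 2.83 ± 0.70 from day 0 to day 7 (limma adjusted p = 0.124) and 1.70 from day 0 to day 4 (limma adjusted p = 0.175). The day 7 change was 2.29 within batch 1 and 3.37 within batch 2. The F test of Fabp5 was lost in 10 of 16 fits with a library removed, and was kept in only 2 of 10 other settings. A near copy, Fabp5l2, aligned with the coding sequence of Fabp5 over 405 bases with 24 differences, an identity of 94.07%, so some reads could belong to either. Fabp5l2 held at most 10.03 reads in a library, in replicate 4 of day 4, where Fabp5 held 671.52.

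Fabp3 (ENSMUSG00000028773.8, chromosome 4, 130308595 to 130315463, plus strand), the carrier typical of heart muscle and also found in brain, has a processed copy. Reads from the bases that both share may not be told apart. Fabp3 has 823 exon bases, so part of it lies outside the copy. The copy, Fabp3-ps1 (chromosome 10, 86731987 to 86732388, minus strand), matched 402 coding bases with 3 differences (99.25% identity), including a run of 256 identical bases. The first 120 coding bases of both are shown because reads from them could fall to either gene; the sequences are from GRCm38 and the capital marks the 1 base that differs.
Fabp3: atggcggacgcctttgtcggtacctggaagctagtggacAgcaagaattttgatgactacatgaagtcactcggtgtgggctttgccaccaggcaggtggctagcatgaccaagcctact
Fabp3-ps1: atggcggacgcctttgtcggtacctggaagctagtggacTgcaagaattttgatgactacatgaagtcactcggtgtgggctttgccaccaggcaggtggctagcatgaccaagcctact

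The deposited levels of the gene and its copy ran side by side. Fabp3 was at 0.823, 7.17, 5.86 and 1.19 FPKM at day 0, at 0.141, 6.30, 0 and 0 FPKM at day 2, at 7.12, 0.122, 0.0472 and 0 FPKM at day 4, and at 17.5, 8.20, 4.41 and 0 FPKM at day 7. In the same libraries Fabp3-ps1 was at 1.04, 6.36, 4.61 and 0 FPKM at day 0, 0, 5.003, 0 and 0 FPKM at day 2, 5.85, 0, 0.0967 and 0 FPKM at day 4, and 15.4, 5.79, 3.43 and 0 FPKM at day 7. Where one was high the other was too, and each day held both high and low libraries of Fabp3. Recovered reads for Fabp3 and its copy were 139.25 and 60 in replicate 1 of day 7. In replicate 4 of day 0 they were 13.5 and 0. How reads that match both were assigned was not tested. A further 19.6% of the exon bases of Fabp3 overlap genes on the opposite strand (Zcchc17 and Gm10570), and the library kit does not mark strand. The changes of Fabp3 lay between -1.19 and 1.65 over the 5 comparisons, and its F test gave a limma adjusted p of 0.443.

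Acsl1 (ENSMUSG00000018796.13, chromosome 8, 46471037 to 46536051, plus strand) encodes a long-chain acyl-CoA synthetase that activates fatty acids for esterification or oxidation. Its level was 6.63, 4.02, 4.57 and 0 FPKM at day 0 and 0.110, 3.77, 4.19 and 4.59 FPKM at day 2. It was 4.90, 3.08, 0 and 1.75 FPKM at day 4 and 0.0394, 0.217, 6.54 and 0.174 FPKM at day 7. Of the 12 libraries of the first 3 days, 9 were between 1.75 and 6.63 FPKM, and 3 of 4 at day 7 were under 1 FPKM. The largest of its 5 changes was -1.06, from day 0 to day 7 (limma adjusted p = 0.643), and it was -2.46 within batch 1 and 0.33 within batch 2. A share of 9.91% of its exon bases overlaps Gm45244 on the opposite strand.

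Among the storage genes, Plin2 stood higher at day 4 in every library but did not pass the test. Plin2 (ENSMUSG00000028494.12, chromosome 4, 86648386 to 86670060, minus strand) encodes the protein that coats lipid droplets in most cells. Its level was 9.85, 16.1, 0 and 1.71 FPKM at day 0, and 7.24, 11.8, 16.2 and 9.69 FPKM at day 2 (11.2 ± 3.80, SD, n = 4). At day 4 it was 30.7, 34.4, 26.3 and 23.7 FPKM (28.8 ± 4.71, SD, n = 4), and at day 7 it was 16.5, 4.02, 52.7 and 16.3 FPKM (22.4 ± 21.02, SD, n = 4). All day 4 libraries lay above all of days 0 and 2, and the day 7 libraries ranged from below day 2 to above day 4.

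The day 4 against day 0 change of Plin2 was 2.64 ± 0.80 (limma adjusted p = 0.0690). It passed when replicate 2 of day 0 was left out (3.25, limma adjusted p = 0.0397), and likewise without replicate 2 of day 7 (limma adjusted p = 0.0473) or replicate 3 of day 7 (limma adjusted p = 0.0469). Within batches the change was 1.30 and 3.98; the day 0 libraries of batch 2 were at 0 and 1.71 FPKM. The day 7 against day 0 change was 1.83 (limma adjusted p = 0.371), with -0.54 within batch 1 and 4.21 within batch 2, and the difference between batches did not pass (limma adjusted p = 0.178). Lpl and Plin2 were the 2 members of 10 whose day 4 libraries all lay above those of day 0, where 12.6% of all genes tested did so. They were also the 2 that lay wholly above day 2, where the share of all genes was 7.83%.

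Soat1 (ENSMUSG00000026600.12, chromosome 1, 156424525 to 156474331, minus strand), the enzyme that esterifies cholesterol in macrophages, overlapped between all days. Its level was 5.65, 2.50, 0.118 and 6.49 FPKM at day 0 and 3.63, 2.61, 7.13 and 13.5 FPKM at day 2. It was 4.16, 5.77, 0.492 and 13.0 FPKM at day 4 and 4.37, 2.68, 9.60 and 0.715 FPKM at day 7. Its changes lay between -0.36 and 0.83, with SE of 0.81, and none passed.

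RefSeq promoter entries were matched for 6 of the 10 members. The 250 bases before the RefSeq start were searched on both strands for the nuclear receptor core motif AGGTCA, the core GAGGAAGT bound by the myeloid factor PU.1, and TATAAA. The core motif was present in the windows of Plin2 and Cd36 among the members and in 14% of 32851 windows of the same length. The other motifs, in 2.44% and 12.4% of all windows, were in no member's window. Both windows with a core motif are shown, 5′ to 3′ on the gene's strand (GRCm38.p6), with the match in capitals as the reverse complement of the motif; a match is a description of the letters only. The Plin2 window lies at chr4:86670060-86670309 and the Cd36 window at chr5:17835897-17836146, both on the minus strand. The Cd36 window lies inside the span of the gene given above.
Plin2: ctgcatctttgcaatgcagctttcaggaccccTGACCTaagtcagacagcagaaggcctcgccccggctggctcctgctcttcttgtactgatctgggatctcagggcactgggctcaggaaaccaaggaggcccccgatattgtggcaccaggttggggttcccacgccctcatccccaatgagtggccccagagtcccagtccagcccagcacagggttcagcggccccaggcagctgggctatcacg
Cd36: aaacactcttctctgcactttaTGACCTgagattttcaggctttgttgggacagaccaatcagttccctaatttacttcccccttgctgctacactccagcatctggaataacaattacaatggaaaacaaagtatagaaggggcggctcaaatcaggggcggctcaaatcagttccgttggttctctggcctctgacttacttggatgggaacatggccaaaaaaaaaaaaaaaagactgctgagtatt

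Of the desaturases, Fads1 fell by day 7. Fads1 (ENSMUSG00000010663.5, chromosome 19, 10182888 to 10196877, plus strand) encodes the delta-5 desaturase of polyunsaturated fatty acid synthesis. Its level was 35.4, 38.5, 30.1 and 37.0 FPKM at day 0 (35.3 ± 3.65, SD, n = 4), and 6.85, 4.17, 33.0 and 30.5 FPKM at day 2 (18.6 ± 15.2, SD, n = 4). At day 4 it was 17.6, 19.1, 14.3 and 10.6 FPKM (15.4 ± 3.78, SD, n = 4), and at day 7 it was 3.32, 0.107, 6.19 and 0 FPKM. The 4 libraries of day 0 were close together, those of day 2 split by batch, all of day 4 lay below day 0, and all of day 7 lay below day 4. The day 2 libraries of batch 2, near the day 0 level, carry the prefix F in their titles where all others carry M; the within-batch changes from day 0 to day 2 were -2.57 and -0.07. Fads1 was the 1 member wholly below day 0 at day 4, where 1.89% of all genes tested were, and Lpl and Fads1 were the 2 wholly below day 4 at day 7, where 8.66% were.

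The change of Fads1 from day 0 to day 7 was -3.90 ± 0.67 (limma adjusted p = 0.0264). It was the only member called lower in that comparison, 1 of 10, where 0.135% of all genes tested were called lower. Within batches the change was -4.12 and -3.68. The call was lost in 4 of 16 fits that left out a library: without replicate 1 of day 0 (adjusted p = 0.0734 by limma), replicate 2 of day 0 (0.0652), replicate 2 of day 7 (0.0657) or replicate 4 of day 7 (0.0811). It was also lost in 6 of 10 other settings. In 1 of them the full title code stood in place of the batch, and the change was -2.45 (limma adjusted p = 0.381); libraries of day 0 and day 7 share no full code, so within a batch the code and this pair of days cannot be told apart. Without replicate 1 of day 0 and replicate 4 of day 7, a setting chosen after seeing the data, the change was -3.19 (limma adjusted p = 0.170). From day 4 to day 7 the change was -2.72 (limma adjusted p = 0.0552), and it was -1.17 from day 0 to day 4 (limma adjusted p = 0.347).

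Scd2 was highest in untreated retina, with wide scatter. Scd2 (ENSMUSG00000025203.6, chromosome 19, 44293674 to 44306864, plus strand) encodes the stearoyl-CoA desaturase most expressed in brain. Its level was 79.3, 19.8, 6.62 and 30.8 FPKM at day 0 (34.1 ± 31.7, SD, n = 4), and 3.62, 8.28, 0.0383 and 4.21 FPKM at day 2 (4.04 ± 3.38, SD, n = 4). It was 19.2, 6.27, 1.11 and 12.9 FPKM at day 4 (9.87 ± 7.87, SD, n = 4) and 4.07, 1.45, 4.47 and 0.130 FPKM at day 7 (2.53 ± 2.09, SD, n = 4). All day 7 libraries lay below all day 0 libraries, 3 of 4 did at day 2, and day 4 overlapped with day 0. The change was -2.69 ± 0.79 at day 2 (limma adjusted p = 0.213), -1.64 at day 4 (limma adjusted p = 0.257) and -3.09 at day 7 (limma adjusted p = 0.129), each against day 0. Within batches it was -3.54 and -2.65 at day 7. Fads1 and Scd2 were the 2 members wholly below day 0 at day 7, where 2.5% of all genes tested were.

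Fads2 (ENSMUSG00000024665.8, chromosome 19, 10062765 to 10101746, minus strand) encodes the delta-6 desaturase. Between its 5′ end and that of Fads1, on the opposite strand, lie 81141 bases. Fads2 did not follow Fads1. Its level was 19.5, 0.0298, 2.46 and 0.0110 FPKM at day 0, 0.176, 0.163, 11.2 and 3.24 FPKM at day 2, 0, 0, 0.130 and 0 FPKM at day 4, and 11.8, 3.07, 0 and 0.0924 FPKM at day 7. Day 4 was low in all 4 libraries and wholly below day 2, the 1 member to be so where 1.69% of all genes tested were. That separation rests on few reads: 5.5 in replicate 3 of day 4, beside 5 and 6 in replicates 1 and 2 of day 2. The remaining day 4 libraries are listed at 0, which may be failed estimates. The other days held both high and low libraries. Its changes lay between -1.51 and 1.41, with SE of 1.04, and none passed.

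Markers of other retinal cells were also higher in some day 0 libraries. The mean log2(FPKM + 1) of 12 Mueller glia and astrocyte genes was 6.37, 5.38, 2.91 and 3.34 in replicates 1 to 4 of day 0, 2.72 to 3.23 at day 2, 2.21 to 3.34 at day 4 and 3.33 to 5.72 at day 7. Their summed level was 2321 to 4194 FPKM at day 0 and 1699 to 2650 FPKM at day 2. It was 589 to 6539 FPKM at day 4 and 2113 to 3612 FPKM at day 7. The highest sum, in replicate 3 of day 4, was nearly all Apoe, which reached 6476 FPKM and is also in the lipoprotein uptake list below. The next highest gene, Clu, reached 772 FPKM. No marker of the list was at or under 1 FPKM everywhere. The highest Scd2 level, 79.3 FPKM, and the highest Fads2 level, 19.5 FPKM, were in replicate 1 of day 0, the library with the highest mean log2 of these markers, although their sum was higher in replicate 3 of day 4. That library also had the highest summed levels of 6 cone genes (1819 FPKM, at most 908 FPKM elsewhere), 10 endothelial and pericyte genes (439 FPKM, at most 135 FPKM elsewhere) and 6 erythrocyte genes (418 FPKM, at most 6.57 FPKM elsewhere). Fads1 was at 30.1 FPKM in replicate 3 of day 0, where the Mueller glia and astrocyte markers were lowest for that day. It was at 3.32 FPKM in replicate 1 of day 7, where the mean log2 of these markers was 5.72. Other lists differed in replicate 3 of day 0. Its summed level of rod genes, 1799 FPKM, was the lowest of that day. Its summed level of retinal ganglion cell genes, 72.0 FPKM, was the highest of all libraries, as was that of amacrine and horizontal cell genes. The part of all these cells in the results, including the Fads1 values, was not tested.

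**Figure D2:**
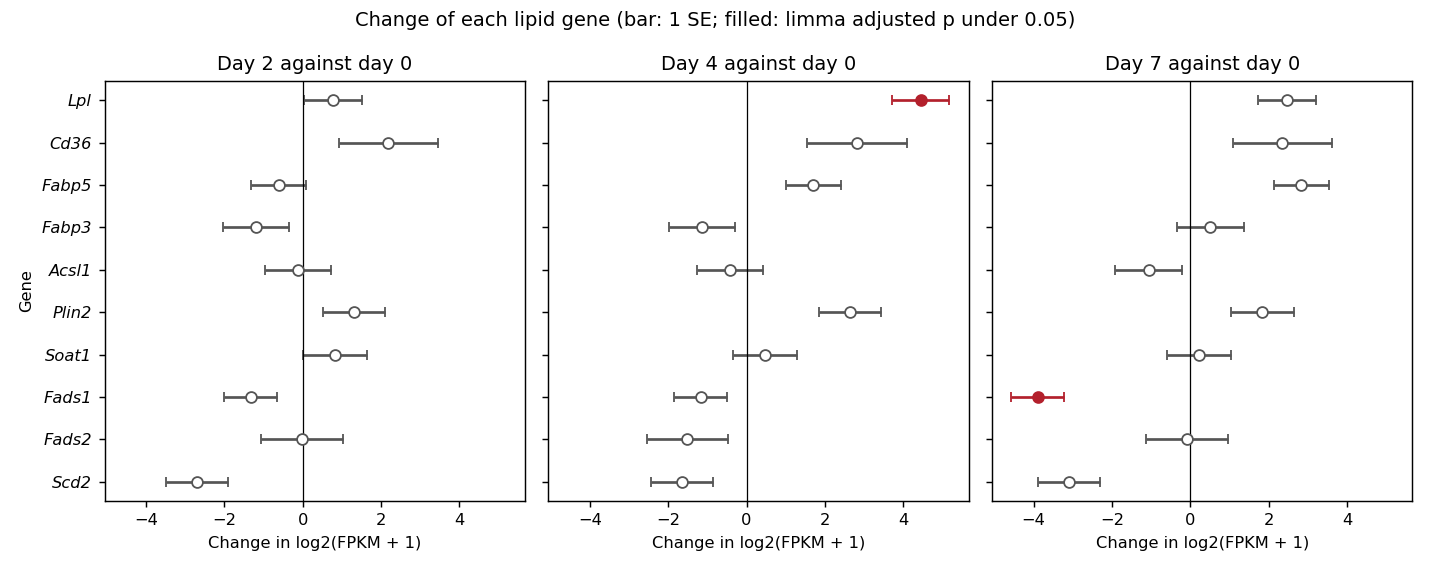
Change of each of the 10 genes at days 2, 4 and 7 against day 0, as differences of log2(FPKM + 1); bars are 1 SE from the limma fit on 16 libraries, and filled symbols passed an adjusted p of 0.05. Lpl passed at day 4 (4.44) and Fads1 at day 7 (-3.90), and no gene passed at day 2.

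Across the 5 comparisons, the 10 members gave 3 calls. None was called at day 2 against day 0, where 0.25% of all genes tested were called higher and 0.0608% lower by limma, and 1 member (Scd2) had an unadjusted p under 0.05, beside 9.73% of all genes. No member lay wholly above day 0 at day 2 (3.37% of all genes tested) or wholly below it (1.35%). None was called at day 7 against day 4, where 0.128% were higher and 1.5% lower, and 2 members (Lpl and Fads1) had an unadjusted p under 0.05, beside 16.3% of all genes. No member lay wholly above day 4 at day 7 (2.23% of all genes tested). No member was called lower at day 4 against day 0 (0.716% of all genes) or against day 2 (0.0203%), and none higher at day 7 against day 0 (0.27%). The F test passed for 3 members, Lpl (adjusted p = 0.0145), Fads1 (0.0231) and Fabp5 (0.0343) by limma. The median change of the 10 members was -0.07 at day 2, 0.03 at day 4 and 0.36 at day 7, each against day 0, beside 0.04, 0.16 and -0.07 for all genes tested. It was 0.39 for day 4 against day 2 and -0.56 for day 7 against day 4, beside 0.16 and -0.25 for all genes.

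The order of the mean FPKM turned over between days, on a scale that compares genes only roughly. At day 0, Fads1 (35.3 FPKM) and Scd2 (34.1 FPKM) were the highest means and their libraries overlapped, while all other members had means under 7 FPKM. At day 4, Lpl (48.4 FPKM) came first and Cd36, spread from 0 to 73.1 FPKM, next, with Plin2 (28.8 FPKM) above Fads1 (15.4 FPKM); all 4 Lpl libraries were above all 4 of Plin2, and all 4 of Plin2 above all 4 of Fads1. At day 7, Plin2 (22.4 FPKM), Fabp5 (17.3 FPKM) and Lpl (13.8 FPKM) led and overlapped in their libraries.

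The calls differed in how firmly they stood against single libraries and settings. The Lpl call at day 4 against day 0 was kept in 16 of 16 fits with a library removed (changes of 3.96 to 4.95, limma adjusted p of 0.0022 to 0.0242) and in 9 of 10 other settings, and was lost in batch 2 alone (4.16, limma adjusted p = 0.286), which holds 2 libraries a day.

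**Figure D3:**
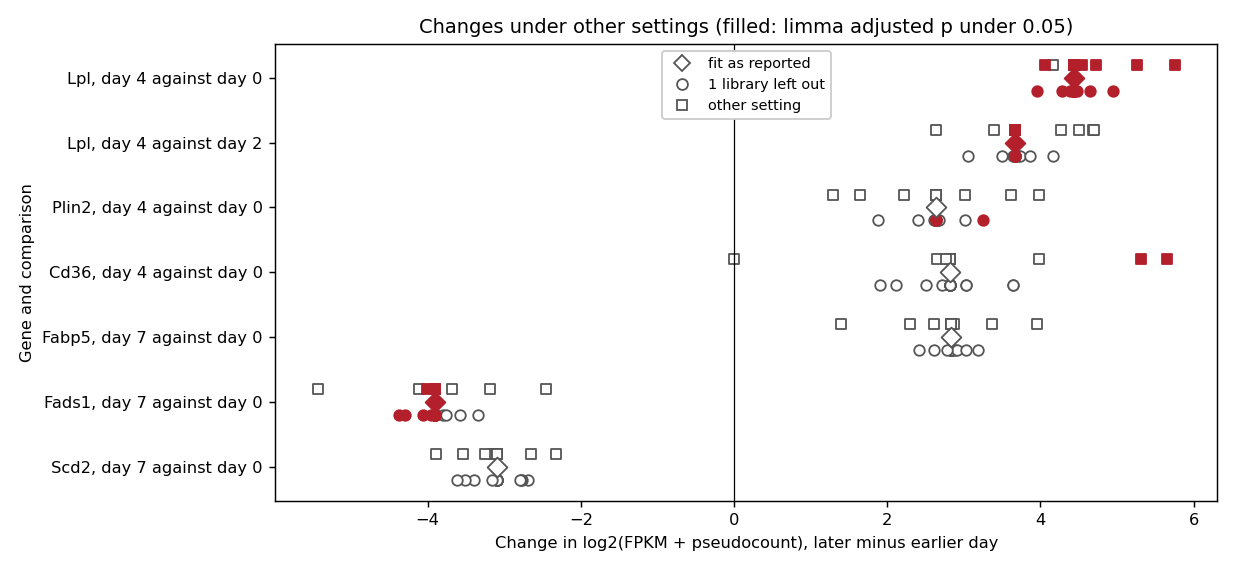
Changes of named genes and comparisons in the fit as reported (diamond), with each of the 16 libraries left out (circles) and under the 10 other settings (squares), as differences of log2(FPKM + pseudocount); filled symbols passed an adjusted p of 0.05. The Lpl change at day 4 against day 0 stays filled throughout except in batch 2 alone, and the Cd36 change at day 4 runs from 0 to 5.65.

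Outside the members, 125 genes in 6 lists were examined and 83 passed the filter. At day 4 against day 0, 2 of the 83 were called higher, beside 4.62% of all genes tested, and none lower. At day 7 against day 0 none was higher and 1 lower, beside 0.135% of all genes, and at day 7 against day 4 none was higher and 1 lower, beside 1.5%. None was called at day 2 against day 0 or at day 4 against day 2 by limma, where 10 and 5 had an unadjusted p under 0.05, beside 9.73% and 11.4% of all genes tested.

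Of 15 tested genes of lipoprotein and scavenger uptake, 1 was called, Cd68, a lysosomal glycoprotein of macrophages. Its level went from 448 ± 277 FPKM at day 0 to 951 ± 202 FPKM at day 4 (SD, n = 4), a change of 1.30 ± 0.30 (limma adjusted p = 0.0225), with 3 of 4 libraries above all of day 0. The median change of this list at day 4 was -0.16, beside 0.16 for all genes. Msr1, a scavenger receptor for modified lipoproteins, had the smallest p at day 7 against day 4 (-2.69, limma adjusted p = 0.136), and Vldlr, a lipoprotein receptor, at day 4 against day 2 (-1.47, limma adjusted p = 0.440).

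Of 9 tested genes of fatty acid transport and activation, Acsl5, an acyl-CoA synthetase, fell from 20.8 ± 8.99 FPKM at day 4 to 3.17 ± 2.97 FPKM at day 7 (SD, n = 4). The change was -2.64 ± 0.61 (limma adjusted p = 0.0413) with 4 of 4 libraries below all of day 4, where 8.66% of all genes tested were. Acsl3, a synthetase of the lipid droplet and endoplasmic reticulum, did not pass at day 4 against day 0 (-3.06, limma adjusted p = 0.0812). All 4 of its libraries lay below day 0, where 1.89% of all genes tested did. Acsl6, typical of neurons, did not pass at day 2 (-2.27, limma adjusted p = 0.294), nor did the transporter gene Slc27a1 at day 4 against day 2 (-1.70, limma adjusted p = 0.549).

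None of 13 tested lipid droplet and neutral lipid genes was called in any comparison by limma; at most 2, at day 4 against day 2, had an unadjusted p under 0.05. The smallest p at day 4 against day 2 belonged to Abhd5, the coactivator of triglyceride lipase, with a change of 2.50 (limma adjusted p = 0.176). Its 4 libraries of day 4 all lay above day 2, where 7.83% of all genes tested did. Pnpla2, that lipase, was at 1.29 for day 7 against day 4 (limma adjusted p = 0.333). Gpat4, an enzyme of glycerolipid synthesis, was at -2.26 at day 2 and -1.68 at day 7 against day 0, and Lpin1, a phosphatidate phosphatase, at -1.29 at day 4; the limma adjusted p were 0.506, 0.534 and 0.320. The list's median change at day 4 against day 0 was -0.49.

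None of 12 tested genes of fatty acid synthesis, desaturation and elongation was called by limma either, and 1, at day 7 against day 4, had an unadjusted p under 0.05. The fatty acid synthase gene Fasn was at -1.08 at day 4 (limma adjusted p = 0.452) and Acly, which makes cytosolic acetyl-CoA, at -1.91 at day 7 (limma adjusted p = 0.434), both against day 0. The elongase Elovl1 was at -1.94 for day 7 against day 4 (limma adjusted p = 0.231), with all 4 libraries lower, where 8.66% of all genes tested were. Cyb5r3, which feeds electrons to desaturases, was at 0.46 at day 2 against day 0 (limma adjusted p = 0.725) and -0.62 for day 4 against day 2 (limma adjusted p = 0.531).

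Of 20 tested fatty acid oxidation genes, Etfb and Crot were called. Etfb, a subunit of the flavoprotein that takes electrons from acyl-CoA dehydrogenases, rose from 27.0 ± 8.15 FPKM at day 0 to 75.2 ± 15.1 FPKM at day 4 (SD, n = 4), a change of 1.46 ± 0.36 (limma adjusted p = 0.0319). Crot, a peroxisomal carnitine acyltransferase, fell from 41.0 ± 5.24 FPKM at day 0 to 8.55 ± 6.44 FPKM at day 7 (SD, n = 4), a change of -2.38 ± 0.43 (limma adjusted p = 0.0293). In both the 4 later libraries lay wholly outside those of day 0. Of all genes tested, 12.6% lay wholly above day 0 at day 4, and 2.5% wholly below it at day 7. Etfa, the other subunit, was at 0.98 for day 4 against day 2 (limma adjusted p = 0.323) and Acadl, a long-chain acyl-CoA dehydrogenase, at 2.68 at day 2 against day 0 (limma adjusted p = 0.369). These calls were less steady than that of Lpl at day 4: leaving out a library lost that of Cd68 in 4 of 16 fits, of Etfb in 7, of Crot in 7 and of Acsl5 in 10. Of 10 other settings, 6 lost the call of Cd68, 6 that of Etfb, 6 that of Crot and 8 that of Acsl5.

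None of 14 tested lipid-sensing transcription regulators was called by limma, and 2, 3 and 4 had an unadjusted p under 0.05 at days 2, 4 and 7 against day 0, beside 9.73%, 20.9% and 12.2% of all genes tested. Their median change against day 0 was -0.94 at day 2, -0.91 at day 4 and -0.80 at day 7, beside 0.04, 0.16 and -0.07 for all genes. The smallest p at each of these days belonged to Ppargc1a (-1.31, limma adjusted p = 0.423), Ppargc1b (-1.92, limma adjusted p = 0.0940) and Srebf2 (-2.16, limma adjusted p = 0.222). Srebf2 encodes a sterol-regulated transcription factor, and all 4 of its day 7 libraries lay below day 0, where 2.5% of all genes tested did. Mlx, a partner of glucose-sensing factors, was at 2.48 for day 4 against day 2 (limma adjusted p = 0.265).

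**Figure D4:**
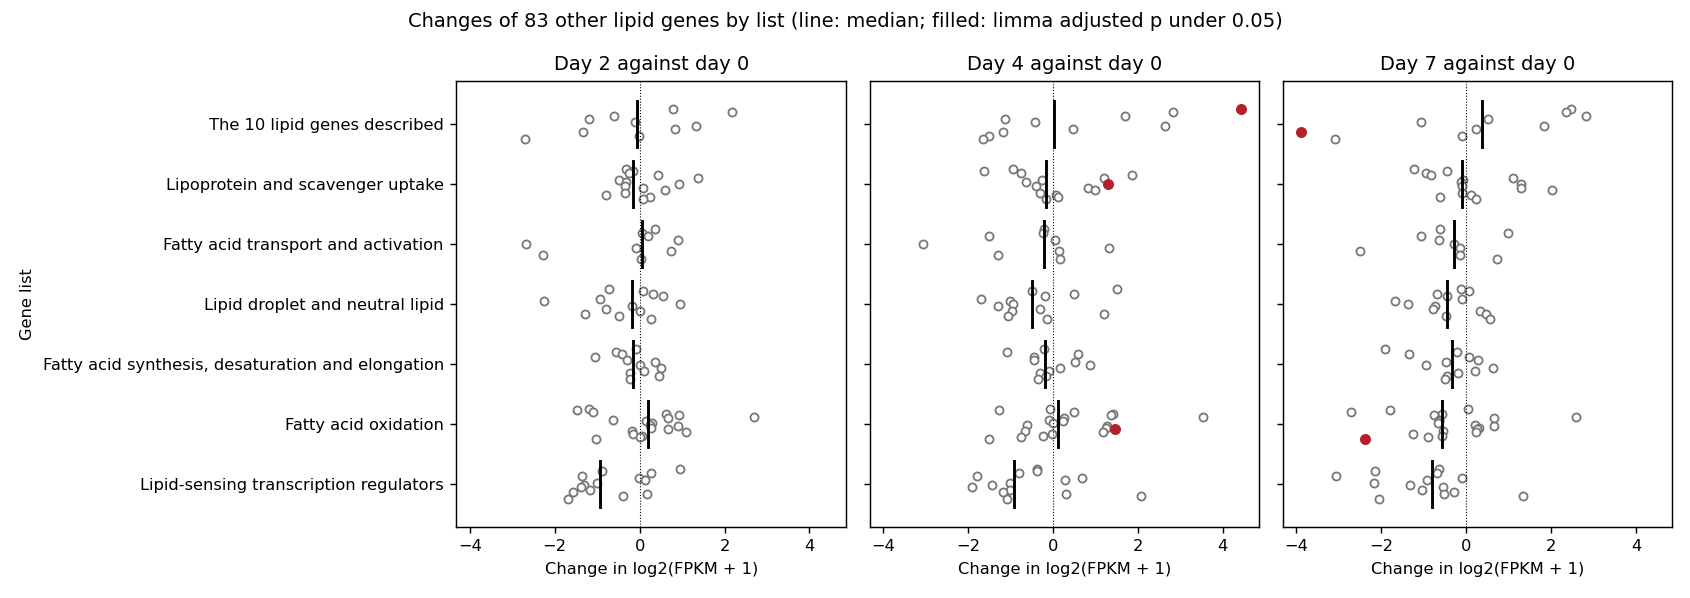
Changes of the 83 tested pathway genes by list, with the 10 members, as differences of log2(FPKM + 1) at days 2, 4 and 7 against day 0; each point is a gene, lines mark list medians and filled points passed an adjusted p of 0.05. Outside the members, the filled points are Cd68 (1.30) and Etfb (1.46) at day 4 and Crot (-2.38) at day 7, and the regulators sit to the left of 0 with medians of -0.94, -0.91 and -0.80.

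Genes whose levels followed each member most closely over the 16 libraries are given as a description; libraries of a day share their condition, batch and age. Lpl ran closest to the cytokine genes Tnf (Pearson r = 0.91) and Il1a (0.90) and to the proteasome gene Psma4 (0.87), out of 5759 candidates with a mean of 5 FPKM or more. Plin2 ran closest to Rexo2 (0.90), Suclg1 (0.88) and Endog (0.87), Fads1 to Fscn1 (0.91), Gart (0.89) and Tmbim6 (0.89), and Fabp5 to Atp6v1g1 (0.92), Tm2d1 (0.84) and Nupr1 (0.80). Cd36 ran closest to Slc2a6 (0.82), Ccna2 (0.81) and Cdca8 (0.75), and Scd2 to Mir5114 (0.93), which lies within an exon of Scd2 on the same strand, then Ctbp2 (0.88) and Flcn (0.85). Acsl1 ran closest to Hars2 (0.93), Hadha (0.80) and Ube2z (0.79), Soat1 to Ezr (0.86), Reep4 (0.86) and Mrpl45 (0.85), Fads2 to C1qtnf12 (0.72), Tfrc (0.72) and Car14 (0.67), and Fabp3 to Tmsb15b1 (0.87), Tmsb15l (0.84) and Tmsb15b2 (0.78). Among the members themselves, r over the 16 libraries was 0.59 for Lpl with Plin2, 0.55 for Lpl with Cd36, 0.52 for Fads1 with Scd2 and -0.70 for Fabp5 with Fads1.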

How the data were processed

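RNA sequencing was deposited for 16 libraries of sorted Iba1-EGFP cells, 4 a day. Lysates of sorted cells gave cDNA that was amplified and then tagmented with the Nextera XT kit, per the labels' protocols. The submitters' processing notes name STAR 2.7.2b, featureCounts 1.6.1, GRCm38.p6 and mm10; the counting of reads that match several genes is not stated there. The authors deposited FPKM per gene for 55385 genes, with gene lengths and no counts. Reads recovered from the FPKM steps were all multiples of 0.01 read (tolerance 0.02 steps), and 46.9% to 63.4% of values above 0 were whole reads, so no count model was used. Library totals of 8647276 to 15708302 reads put 3 reads in a gene of 1 kb at 0.191 to 0.347 FPKM, counting error only.

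The 14795 genes that reached 1 FPKM in 4 or more libraries were fitted as log2(FPKM + 1) on day and batch with limma 3.58.1 (trend) in R 4.3.3, all libraries in 1 fit, two-sided, with Benjamini-Hochberg adjustment over all genes at a threshold of 0.05; the code was tested on simulated data. Alternatives changed the scaling, pseudocount, filter, batch term, replicate block and libraries. Named genes were the 10 members, the called or smallest-p genes of each pathway list and the 3 most alike genes per member (mean of 5 FPKM or more). The members and lists were chosen with earlier results of these data known. Titles and columns matched for all 16 libraries. All 10 members had the same identifier and span in GENCODE M21, from which the coding sequences came; promoters were from RefSeq.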

Additional observations from a re-analysis of the deposited data

Results flagged for a closer look

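In 7 of 40 groups of 4 libraries (10 genes, 4 days), a library lay farther from the other 3 than the critical value of Dixon's test allows on the log2 scale; chance flags about 1 in 20 groups. The binding and activation genes held 5 of the 7. Fabp5 was at 5.15 FPKM in replicate 2 of day 2, where the others were at most 0.0587 FPKM, and Fabp3 was at 6.30 FPKM in the same library, where the others were at most 0.141 FPKM. Fabp3 was also at 7.12 FPKM in replicate 1 of day 4, with the others at most 0.122 FPKM. Acsl1 was at 0.110 FPKM in replicate 1 of day 2, with the others at 3.77 to 4.59 FPKM, and at 6.54 FPKM in replicate 3 of day 7, with the others at 0.0394 to 0.217 FPKM. Cd36 was at 0.465 FPKM in replicate 1 of day 0 and listed at 0 in the others, and Fads2 was at 0.130 FPKM in replicate 3 of day 4 and listed at 0 in the others. In the last 2 groups, with 3 libraries listed at 0, any value above 0 is flagged.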

How the results depend on the processing

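Of the 10 members, the number called was 0 at day 2, 1 at day 4 and 1 at day 7 against day 0, 1 at day 4 against day 2, 0 at day 7 against day 4 and 3 by the F test. For day 4 against day 0 it was 2 with the full title code as covariate and 2 in batch 1 alone (Lpl and Cd36 in both), and 0 in batch 2 alone. For day 7 against day 0 it was 0 with a pseudocount of 0.1 and with no filter on low values. It was 0 in batch 1 alone and in batch 2 alone. It was also 0 without replicate 1 of day 0 and replicate 4 of day 7 (chosen after seeing the data). With the full title code, of which libraries of these days share none, it was 1, Cd36 in place of Fads1. For day 4 against day 2 it was 0 with median-of-ratios scaling, a pseudocount of 0.1, no filter, the full title code, the replicate block, batch 1 alone, batch 2 alone and without both F-prefixed day 2 libraries. For day 7 against day 4 it was 1 (Fads1) without both F-prefixed libraries. The F test passed for 0 members with a pseudocount of 0.1, no filter, batch 1 alone or batch 2 alone, and for 1 without replicate 1 of day 0 and replicate 4 of day 7. Leaving out each library in turn gave 0 to 0, 1 to 2 and 0 to 1 members against day 0, 0 to 1 for day 4 against day 2, 0 to 1 for day 7 against day 4, and 0 to 3 by the F test. The sign turned for Plin2 at day 7 against day 0, at -0.54 in batch 1 alone. The Cd36 change at day 4 against day 0 was 0 in batch 2 alone, where all 4 libraries of these days are listed at 0. The cause of these shifts was not tested. Fits of single batches also hold fewer libraries, so batch and number of libraries change together there.

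Equal replicate numbers showed no clear pairing of the libraries. The 24 same-numbered pairs had r of -0.06 to 0.23 (median 0.04), and 5 were over 0.1. The median was 0.05 for pairs of the same batch with another number, and -0.01 for all pairs with another number. Of 16 libraries, 5 were closest to their own number. Correlations this weak cannot exclude a pairing. With the replicate block the Lpl change for day 4 against day 2 was 3.67 (limma adjusted p = 0.0952). Over all genes the calls numbered 46, 790 and 60 at days 2, 4 and 7 against day 0, 67 for day 4 against day 2, 241 for day 7 against day 4 and 427 by the F test, and ranged over other settings from 0 to 126, 0 to 768, 0 to 78, 0 to 152, 0 to 273 and 0 to 448. Median-of-ratios scaling moved the median change of all genes by -0.12, -0.33, -0.01, -0.20 and 0.30 in those 5 comparisons, and the share of calls that were higher from 80.4% to 67.3%, 86.6% to 56.7%, 66.7% to 59.0%, 95.5% to 69.6% and 7.88% to 43.8%. Cd36 was above 0 in 10 of 16 libraries and Fabp3 and Fads2 in 12, which limits their changes.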

Other observations

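Of 23 relatives of the members, 13 exceeded 1 FPKM in at least 1 library. The highest level in any library was 0.166 FPKM for Scd1, 0.257 FPKM for Plin5, 0.106 FPKM for Plin1, 0.189 FPKM for Plin4, 1.13 FPKM for Fabp4, the carrier typical of fat cells and some macrophages, and 4.25 FPKM for Fabp7. Plin3, a perilipin found on droplets and in the cytosol, was detected in every library, at 0.590 to 43.1 FPKM. Its mean at days 0, 2, 4 and 7 was 11.8 ± 12.4, 4.38 ± 2.79, 23.6 ± 13.1 and 9.86 ± 9.97 FPKM (SD, n = 4). All 4 libraries of day 4 were above all of day 2, as for Plin2 and for 7.83% of all genes tested. Among the acyl-CoA synthetases, Acsl3 ranged from 0.0133 to 193 FPKM, Acsl4 from 0.282 to 23.6 FPKM and Acsl5 from 0.167 to 59.6 FPKM. Other peaks were 28.1 FPKM for Dgat1, 19.3 FPKM for Acsl6, 12.4 FPKM for Soat2, 7.50 FPKM for Fads3, 7.45 FPKM for Dgat2 and 5.45 FPKM for Scd3. Fabp12 reached 74.8 FPKM, in day 0, and ranged from 14.6 to 45.3 FPKM at day 7. These genes were picked for their family, after values had been seen.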
